A study of Drosophila melanogaster with 8 samples.

Results

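Bicoid (Bcd) binding was described at 3 developmental loci of Drosophila melanogaster, those of wingless (wg), hedgehog (hh) and spalt major (salm). Their peaks were taken by position: a deposited Bcd peak counted as a member when it overlapped a fixed window by at least 1 bp. On build dm3 the windows ran from 7290000 to 7330000 on 2L for wg, from 18930000 to 18985000 on 3R for hh, and from 11420000 to 11470000 on 2L for salm. They held 14 of the 3891 peaks of the wild-type list and 12 of the 2650 peaks of the zelda mutant list. The samples were chromatin immunoprecipitation (ChIP) and input libraries from wild-type and zelda mutant embryos collected 1 to 3 h after egg laying, 4 groups of 2 replicates in all. Each genotype had 1 deposited peak list, so no value below has a replicate spread and no difference between the genotypes was tested. The zelda allele, the way the mutant embryos were obtained and the strain of the wild type are not given in the sources used here. The chromatin came from homogenates of many whole embryos, so anterior nuclei, rich in Bcd, and posterior ones were measured together.

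Bcd is a homeodomain protein whose gradient, highest at the anterior pole, patterns the head and trunk of the early embryo. Zelda is a zinc finger protein supplied by the mother that binds widely over the early genome and without which much of early zygotic transcription fails. The comparison asks where Bcd was bound when Zelda was missing. Segment polarity genes divide each segment into an anterior and a posterior part. The gene wg encodes a secreted ligand of the Wnt family, and hh encodes the secreted Hedgehog ligand; in the segmented embryo cells that make Wingless and cells that make Hedgehog lie side by side and maintain each other's signal. The third gene, salm, encodes a zinc finger transcription factor that specifies head and tail regions and has later roles in the trachea and the wing.

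In the RefSeq gene table of Release 6, a later assembly than the one used for the peaks, the next protein-coding genes were Wnt4 on the left of wg and Wnt6 and Wnt10 on its right, all encoding Wnt ligands. Next to salm lay salr, its related zinc finger gene, on the left and sala on the right. The neighbours of hh were CG31457 on the left and unk on the right. Positions were not carried between the assemblies, so peaks are named by locus and position and not as promoter, intron or intergenic sites. A peak in a window need not serve the gene the window is named for.

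The depth differed between the lists. After removal of duplicate tags the wild-type ChIP held 39154546 tags and the mutant ChIP 10060479, a ratio of 3.89, while the inputs held 22487837 and 17035242. The number and length of peaks that pass a fixed p cutoff move with depth, so the part of depth in every difference of number or length below was not tested. Strength is given as a peak's fold enrichment, the authors' ratio of ChIP signal to the background expected from the input, and as its tag density in RPKM, the tags per kb of called peak scaled to the filtered ChIP tags of the library. Intervals on tags are exact Poisson 95% intervals and cover counting error only, since sequenced tags are not independent molecules.

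Every mutant peak of the 3 loci lay on a wild-type peak, and the Bcd regions found in wild type alone were at wg and salm. A mutant partner, meaning an overlap of at least 1 bp, was present for 11 of the 14 wild-type peaks. This was 78.6% (52.4 to 92.4, Wilson 95% interval), against 45.5% of all 2827 wild-type peaks of the chromosome arms. Conversely, 12 of 12 mutant peaks had a wild-type partner, against 74.4% of the 1870 mutant arm peaks. Wilson intervals treat peaks as independent, but the 14 lay in 3 chosen loci, some of them close neighbours. The interval is therefore no test of a difference from the arms. The wild-type shares were also not matched for strength, since 12 of the 14 peaks lay above the arm median fold. On the arms, 28.3% of the 566 wild-type peaks with the highest p-values had a partner. Of the 566 with the lowest p-values, 62.0% did. By locus, wild-type peaks with a mutant partner numbered 3 of 5 at wg, 5 of 5 at hh and 3 of 4 at salm. With so few peaks the Wilson intervals of the loci overlap widely, from 23.1 to 88.2% at wg, 56.6 to 100% at hh and 30.1 to 95.4% at salm. At hh the mutant list held 6 peaks, because the longest wild-type peak covered 2 of them.

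All 3 windows were dense in Bcd peaks. The arms were split into 2404 back-to-back stretches of 50 kb, which held a median of 1.00 wild-type peak and a mean of 1.24. At least 5 wild-type peaks, the number at wg and at hh, were found in 3.33% of the stretches, and at least 4, the number at salm, in 7.90%. For the mutant list, 8.86% of the stretches held at least 3 peaks, the number at wg and salm, and 0.749% held at least 6, the number at hh. The wg window is 40 kb long, the hh window 55 kb and the salm window 50 kb. Of stretches as long as the wg window, 1.86% held at least 5 wild-type peaks and 6.69% at least 3 mutant ones; for the hh window the shares were 4.67% with at least 5 and 1.05% with at least 6. At wg, 4 wild-type and 2 mutant peaks had their summit inside the window.

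**Figure D1:**
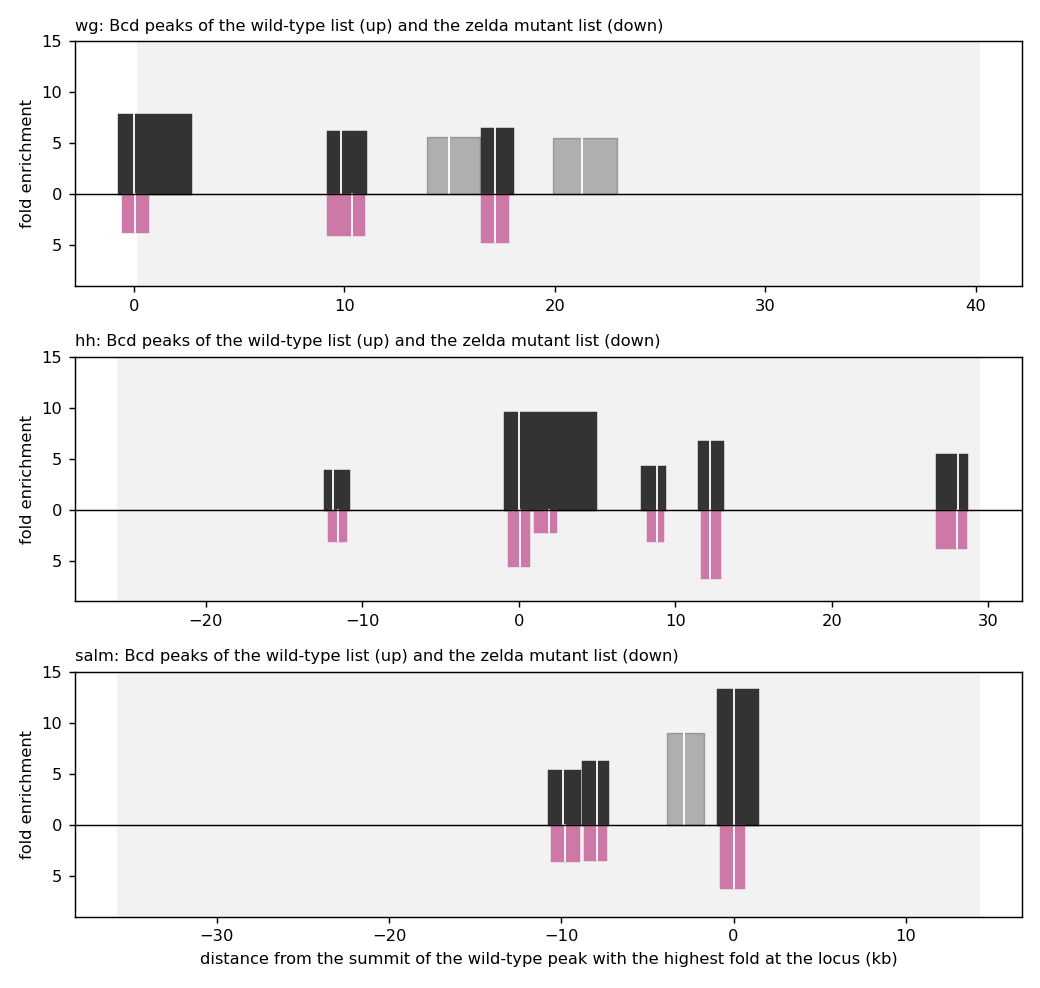
Bcd peaks of the 3 loci, drawn to scale. The horizontal axis is the distance in kb from the summit of the wild-type peak with the highest fold; bar width is peak length, bar height is fold enrichment (wild type upwards, zelda mutant downwards), white lines are summits, pale bars are peaks with no partner in the other list, and grey shading is the window. The 3 pale bars are all wild-type peaks, 2 at wg and 1 at salm.

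At wg, 5 wild-type peaks covered 12.4 kb and 3 mutant peaks covered 4.26 kb. Numbered by position, wild-type peak 1 ran from 7289071 to 7292543 on 2L and had the highest fold and the most tags of the locus, 7.91 and 1784 tags (1702 to 1869). It is an edge member: its first 929 bp and its summit at 7289826 lay outside the window, and the mutant summit, 34 bp away at 7289860, did too. The mutant partner, from 7289269 to 7290505, held 180 tags (155 to 208) at a fold of 3.71 and covered 35.6% of the wild-type peak. The mutant peak thus lay over the summit end of a broad wild-type region whose remainder was not called in the mutant.

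Peak 2 of wg ran from 7298994 to 7300871, with 1050 tags and a fold of 6.24. Its counterpart in the mutant list, from 7299015 to 7300752, had 251 tags and a fold of 4.03. The called regions nearly coincided, with 92.5% of the wild-type peak covered, yet the summits lay 494 bp apart, at 7299669 in wild type and 7300163 in the mutant. This was the largest summit distance among the 10 places of the 3 loci where 1 wild-type peak met 1 mutant peak. Peak 4, the shortest of the locus, ran from 7306329 to 7307826, with 883 tags (826 to 943) and a fold of 6.48. Its partner from 7306322 to 7307605 held 236 tags (207 to 268) and had the highest mutant fold at wg, 4.66, and the summits lay 14 bp apart.

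The remaining wg regions were found in wild type alone. Peak 3, from 7303753 to 7306288, had a fold of 5.65, 1379 tags (1307 to 1454) and the highest score of the locus, 551.68, where the score is the negative log10 of the MACS p-value multiplied by 10. It ended only 33 bp before the start of the mutant peak that partnered peak 4, and 40 bp before peak 4 itself. Its summit at 7304793 was 2.20 kb from the nearest mutant summit. Peak 5, from 7309730 to 7312790, had a fold of 5.53, 1552 tags (1476 to 1631) and a score of 423.50, and the nearest mutant summit was 4.14 kb away. So 2 of the 3 highest scores of wg in wild type belonged to regions with no mutant call, while peak 4, with the lowest score of the locus, 159.36, had one.

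At hh, each of the 5 wild-type regions had a mutant partner. Peak 2, from 18954654 to 18960501 on 3R, was the broadest of all 14, at 5848 bp, and had a fold of 9.61 and 3258 tags (3147 to 3372). It ranked 142nd by fold and 150th by length among the 2827 wild-type arm peaks. In the mutant list the same place held a pair of separate peaks with 287 bp between them. The first, from 18954889 to 18956267, held 227 tags (198 to 259) at a fold of 5.49, and its summit lay 59 bp from the wild-type summit at 18955579. The second, from 18956555 to 18957940, had a fold of 2.20, 147 tags (124 to 173) and a score of 52.19, close to the cutoff of 50; by fold it ranked 1853rd of 1870. Together they left the right-hand part of the wild-type region, after 18957940, without a mutant call.

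Peak 4 of hh, from 18967046 to 18968607, had nearly the same fold in both lists, 6.71 in wild type and 6.69 in the mutant, with summits at the same base, 18967795. It held 967 tags (907 to 1030) in wild type and 245 (215 to 278) in the mutant partner from 18967190 to 18968440. This mutant peak was the strongest of the 12 by fold, 147th of 1870, while its wild-type partner was 713th of 2827. Peak 5, from 18982220 to 18984225, had folds of 5.47 and 3.79, with 1051 and 259 tags and summits 62 bp apart.

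The 2 weakest wild-type regions of the 3 loci were also at hh, and both were called in the mutant. Peak 1, from 18943171 to 18944731, had a fold of 3.91, 603 tags (556 to 653) and a score of 60.23. Its partner had a fold of 3.10, 126 tags (105 to 150) and a score of 65.31. Peak 3, from 18963395 to 18964938, had a fold of 4.31, 649 tags (600 to 701) and a score of 57.40, against a fold of 3.12, 113 tags (93 to 136) and a score of 62.92. Their summits lay 317 and 8 bp apart. Both members of each pair sat near the cutoff, with false discovery rates, as the authors' peak caller estimated them, of 16.15 and 16.27% in wild type and 12.63 and 12.92% in the mutant.

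At salm, the peaks lay within the right-hand part of the window, their wild-type summits spanning 9.92 kb, and 3 of 4 had a mutant partner. Peak 4, from 11454767 to 11457129 on 2L, had the highest fold of all wild-type arm peaks, 13.31, with 2044 tags (1956 to 2135). By score it ranked 26th of 2827, by tags per kb 16th, and by tag number 491st. It was of ordinary length, at 2363 bp against an arm median of 2127 bp. The mutant peak on it, from 11454934 to 11456319, held 258 tags (227 to 291) at a fold of 6.13, with the rank 190 of 1870 by fold, with the summits 20 bp apart. It was the only mutant peak of the 12 with a false discovery rate of at most 5%, at 2.37%.

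Peak 3 of salm, from 11451889 to 11454011, was the strongest member without a mutant partner, with a fold of 9.05, 1451 tags (1377 to 1528) and a score of 827.09. It ended 755 bp before peak 4. The nearest mutant peak, the partner of peak 4, began 922 bp after it, and the mutant summit was 2.92 kb from its own. Among the 1542 wild-type-only arm peaks it ranked 78th by fold and 77th by score. Peaks 1 and 2, from 11444962 to 11446836 and from 11446940 to 11448443, stood 103 bp apart. Peak 1 had a fold of 5.36 and 1149 tags in wild type, and a fold of 3.49 and 259 tags in the mutant. For peak 2 the values were 6.26 and 780 tags, and 3.47 and 159 tags. Summits lay 118 bp apart for peak 1 and 1 bp apart for peak 2. The mutant list thus kept the flanking regions of salm and lacked the one between them.

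**Figure D2:**
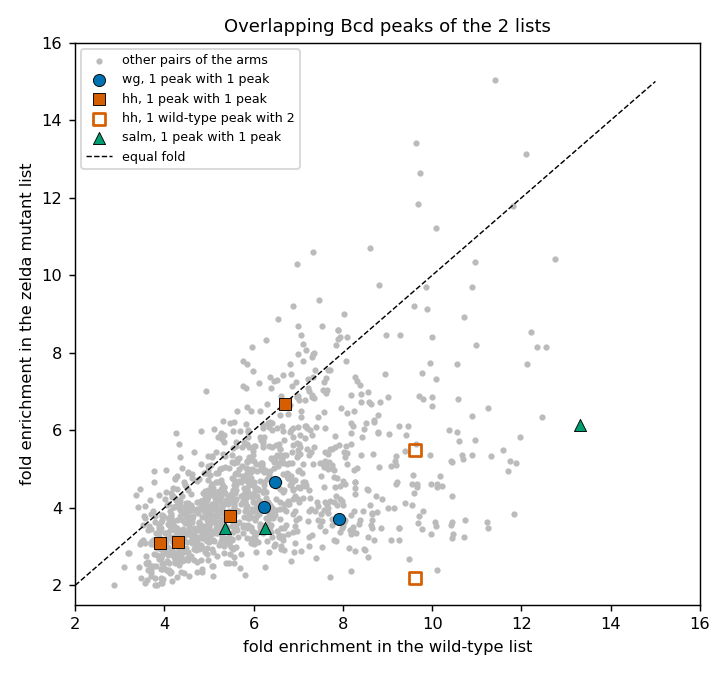
Fold enrichment of overlapping Bcd peaks, wild-type list on the horizontal axis and zelda mutant list on the vertical axis. Grey points are the other pairs of 1 peak with 1 peak on the arms, coloured points the pairs at wg, hh and salm, open squares the hh region that met 2 mutant peaks, and the dashed line equal fold. All coloured points lie on or below the line, with hh peak 4 at 6.71 and 6.69 beside it and salm peak 4 at 13.31 and 6.13 farthest to the right.

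The fold was lower in the mutant list in 10 of the 10 pairs of 1 peak with 1 peak at these loci, which is also the common state of the arms, where it was lower in 89.6% of 1187 pairs. The ratio of mutant to wild-type fold ran from 0.461 at salm peak 4 to 0.997 at hh peak 4, with a median of 0.672; over the arm pairs the median was 0.728 and the quartiles 0.610 and 0.863. Ratios as low as those of salm peak 4 and of wg peak 1 (0.469) were reached by 7.08 and 7.58% of arm pairs, and 89.3% of arm pairs had a ratio no higher than that of hh peak 4. MACS scaled each run to its own ChIP and input libraries, so the level of these ratios is not a measured change in binding. Only their order among the arm pairs, within the same pair of lists, can be read. That order is over arm pairs of every strength, not matched for wild-type fold, and salm peak 4 had the highest wild-type fold, 13.31. The part of wild-type fold in its low ratio was not tested.

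Mutant peaks were shorter in 10 of 10 pairs, against 95.5% of arm pairs. The ratio of lengths had a median of 0.809 at the 3 loci and 0.757 on the arms. The smallest was 0.356 at wg peak 1, and the largest were 0.944 at hh peak 5 and 0.925 at wg peak 2. Of the 12 mutant peaks, 11 lay wholly inside their wild-type partner, against 86.1% of the 1392 shared mutant arm peaks; the exception, at wg peak 4, began 7 bp before it. Summits were within 200 bp in 8 of the 10 pairs, against 79.9% of arm pairs, with a median distance of 27.0 bp against 47.0 bp. The pairs beyond 200 bp were wg peak 2 and hh peak 1.

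**Figure D3:**
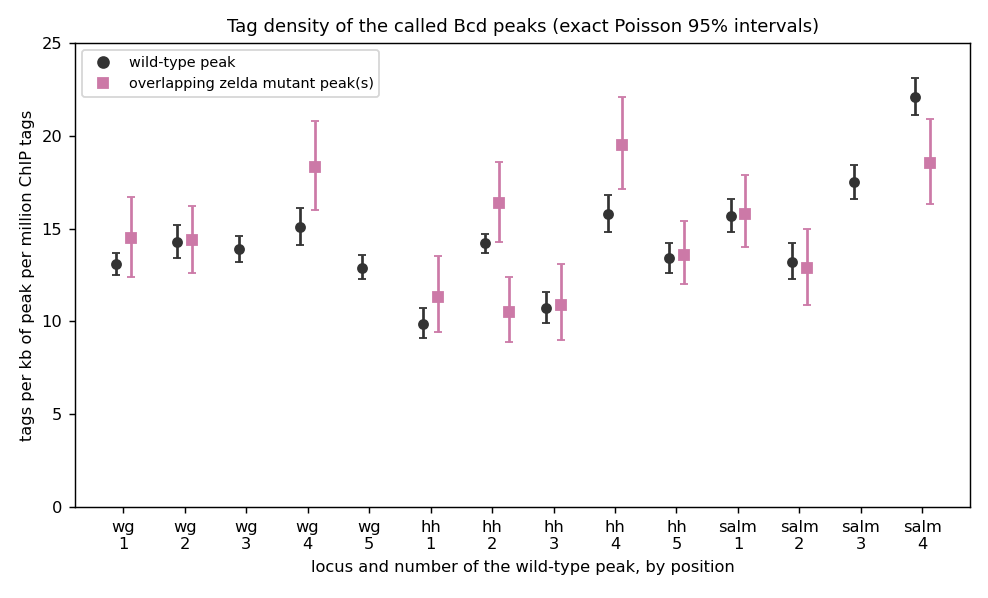
Tag density of each wild-type peak (circles) and of the mutant peaks that overlap it (squares), in RPKM (tags per kb of called peak, scaled to the filtered ChIP tags), with exact Poisson 95% intervals. Peaks are numbered by position within wg, hh and salm; wg peaks 3 and 5 and salm peak 3 have no square. Salm peak 4 is the densest wild-type peak, at 22.1, and its mutant partner is at 18.5.

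The ratio of mutant to wild-type density moved with the divisor used. Scaled to the filtered ChIP tags, the ratio of mutant to wild-type density had a median of 1.02 over the 10 pairs and 1.15 over the arm pairs, and was below 1 in 2 of 10 pairs against 23.7% on the arms. Scaled to the smaller library of each run, the median was 0.584 and the ratio was below 1 in 10 of 10 pairs, as in 99.3% of arm pairs. That library was the input for wild type and the ChIP for the mutant, so every ratio fell by the same factor. The count below 1 under this divisor therefore does not show which list was denser. With each called peak's own scaled tags over the length of the union of both peaks, the ratio was below 1 in 9 of 10 pairs. On the arms this held for 66.8% of pairs. It ran from 0.393 at wg peak 1 to 1.04 at wg peak 4. Tags of the union outside a called peak were not counted, so this ratio compares called-peak tags and takes in called length.

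With the first scaling, the interval of the ratio held 1 in 7 of the 10 pairs, against 43.5% of arm pairs. It lay above 1 in 2 pairs, against 46.3% on the arms. These were wg peak 4, with a ratio of 1.21 (1.05 to 1.40), and hh peak 4, with 1.23 (1.07 to 1.42). It lay below 1 in 1 pair, against 10.3% on the arms. This was salm peak 4, with 0.838 (0.733 to 0.954), a ratio reached or undercut by 7.58% of arm pairs. The intervals hold counting error alone. The mutant regions of these pairs were also shorter, and the part of length in the density ratios was not tested. Each run kept at most 1 tag per position. Before scaling, the wild-type peaks held more tags per kb than their partners, 589 against 184 at wg peak 4. At hh peak 4 the values were 619 and 196, and at salm peak 4 they were 865 and 186. The part of the limit on tags per position in the density ratios was not tested either. Called-peak tags over the length of the union gave ratios of 0.986 at hh peak 4 and 0.491 at salm peak 4.

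Summed over each locus, the mutant peaks held less of their library than the wild-type ones, in step with the called length. Mutant peaks were also fewer and shorter over the arms, 1870 with a median of 1364 bp against 2827 with a median of 2127 bp. The same sums were not made for the arms, so it cannot be told whether the ratios below are particular to these loci. At wg, the peaks held 170 RPM (tags scaled to the filtered ChIP tags) in wild type (166 to 174) and 66.3 RPM in the mutant (61.4 to 71.5), a ratio of 0.390 beside a ratio of covered length of 0.342. For hh the sums were 167 RPM (163 to 171) and 111 RPM (105 to 118), with ratios of 0.666 for tags and 0.643 for length. The salm peaks held 139 RPM (135 to 142) and 67.2 RPM (62.2 to 72.5), with ratios of 0.485 and 0.539. Mean density in RPKM was 13.6 and 15.6 at wg, 13.3 and 13.8 at hh, and 17.6 and 15.8 at salm, in wild type and mutant. Scaled to the filtered ChIP tags, salm was the locus where the mutant peaks had the lower mean density. In wild type, peaks 3 and 4 of salm were the 2 densest of the 14 wild-type peaks, at 17.5 (16.6 to 18.4) and 22.1 (21.1 to 23.1).

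**Figure D4:**
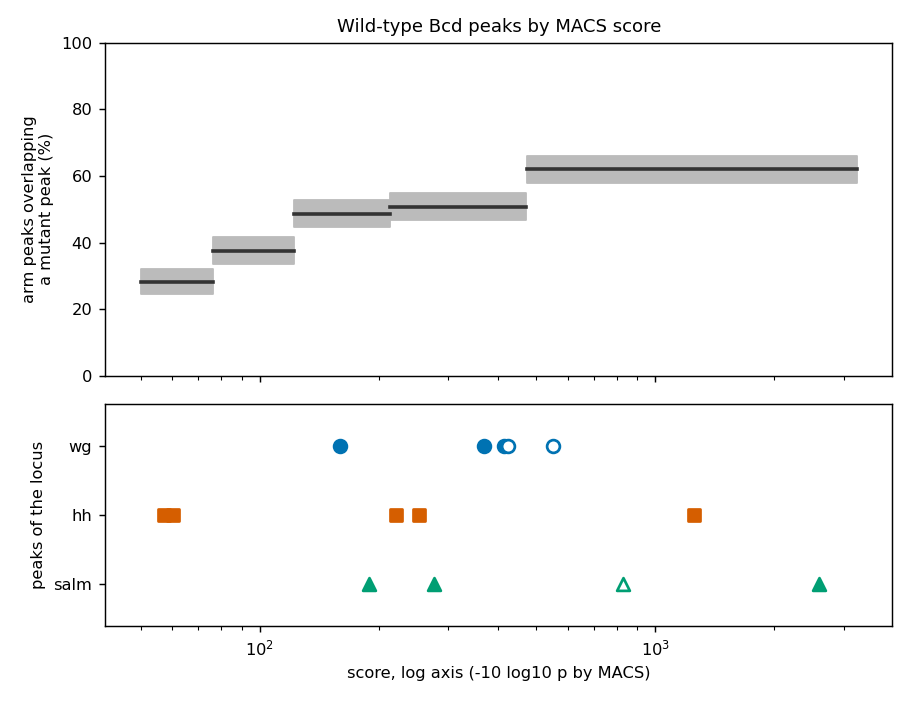
Upper plot: share of wild-type arm peaks that overlap a mutant peak, in 5 equal groups by score, with Wilson 95% intervals (grey); the horizontal axis is the score on a log scale. Lower plot: the wild-type peaks of wg, hh and salm at their scores, filled where a mutant peak overlaps and open where none does; the 3 open points lie at 423.50, 551.68 and 827.09.

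By score, the wild-type-only regions of the 3 loci were not the weak ones. Their scores exceeded those of 9 of the 11 shared wild-type members, and only hh peak 2 and salm peak 4, at 1253.56 and 2586.11, scored higher than all 3. On the arms the share with a mutant partner rose with score. It was 28.3% (24.7 to 32.1) among the 566 wild-type peaks with the lowest scores, where hh peaks 1 and 3 belong. Among the 566 with the highest scores it was 62.0% (57.9 to 65.9), and 215 of these had no partner. Of the members there, wg peak 3 and salm peak 3 had no partner, while hh peak 2 and salm peak 4 were shared. The members were only 3 wild-type-only and 11 shared peaks. Whether they depart from arm peaks of equal score was not tested. Of the 290 wild-type arm peaks that scored at least as high as salm peak 3, 73.4% had a mutant partner, and of the 480 at or above wg peak 3, 65.0% did. By fold, salm peak 3 stood at 9.05, while wg peaks 3 and 5, at 5.65 and 5.53, were the 2 lowest of wg in wild type. The part of the lower mutant depth in the missing calls was not tested.

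Within each list the members ranged widely in strength. The median fold of the 14 wild-type members was 6.25, against 5.33 for all wild-type arm peaks, and 12 of 14 lay above that arm median. The 12 mutant members had a median fold of 3.75, against 3.97 for all mutant arm peaks, and 5 lay above it. A false discovery rate of at most 5% was met by 9 of 14 wild-type members, against 35.3% of arm peaks, and by 1 of 12 mutant members, against 13.2%. The highest fold of a locus in wild type stood in the order salm (13.31), hh (9.61) and wg (7.91, or 6.48 without the edge member), and in the mutant list in the order hh (6.69), salm (6.13) and wg (4.66). The 2 highest mutant values, of hh peak 4 and salm peak 4, rest on 245 and 258 tags, whose intervals overlap. Those intervals are on tags and none was computed for a fold, so the error of this order is not known.

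Outside the windows, the nearest wild-type peak of a locus lay 15.4 to 39.9 kb away, on arms with a mean of 1.24 wild-type peaks per 50 kb. The nearest wild-type peak on the left of the wg window was 39.9 kb away, from 7248352 to 7250127, with a fold of 6.84 and a mutant partner; the nearest on the right was 72.6 kb away. To the right of the salm window a wild-type peak with a fold of 6.48, from 11485398 to 11486997, lay 15.4 kb away and had no mutant partner. For hh, the nearest wild-type peak was 33.5 kb to the right, with a fold of 6.08 and no mutant partner. On its left the nearest mutant peak, from 18882328 to 18883744, was 46.3 kb away, with a fold of 9.38, higher than that of any mutant member, and had no wild-type partner. Of the members, wg peak 1 reached across the left edge of its window, and hh peak 5, which ended at 18984225, came close to the right edge of its own.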

How the data were processed

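ChIP-seq with an antiserum against Bcd, and input libraries, were made from embryos of both genotypes. Per the submitters' processing notes, Bowtie2, build dm3 and MACS 1.4.2 were used. Per the file headers, each MACS run set 1 ChIP file against 1 control, kept at most 1 tag per position, read tags of 50 bp, took 300 bp as the band width and 200 bp as d, the fragment length, and stopped at a p of 1e-05; the larger dataset was scaled to the smaller. The joining of replicates was not described in any label or header.

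Each deposited list gives, per peak, a whole tag count, a score, a fold enrichment (a ratio) and a false discovery rate in percent. These are the authors' values, used to describe and rank peaks within a list. Here, peaks were placed in the windows, paired by an overlap of at least 1 bp, ranked among the arm peaks (2L, 2R, 3L, 3R, 4 and X), and their tags divided by length and filtered ChIP tags. Positions are 1-based, and a summit is the start plus its offset minus 1. All peaks of the windows are reported, with the strongest and the unshared peaks of each locus in full. Members and lists were chosen with earlier results of these data known. The planned search for motifs at summits and promoters was not run, as no dm3 sequence was used here. Overlap and interval code was tested on simulated data. The work used Python 3.11.15, numpy 2.4.6, pandas 2.3.3, scipy 1.17.1 and matplotlib 3.10.9. Alternatives covered the window rule, score and false discovery rate limits, overlap rules, ranking measure and depth scaling.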

Additional observations from a re-analysis of the deposited data

How the results depend on the processing

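No paired analysis was possible because each genotype has 1 list without replicate columns; for the same reason no replicate could be left out. With the summit inside the window, wg had 4 wild-type and 2 mutant peaks, and windows 10 kb longer on each side changed no number. A score of at least 100 left 3 wild-type and 3 mutant peaks at hh. A false discovery rate of at most 5% left 2 wild-type peaks at hh and, in the mutant list, 0 at wg, 0 at hh and 1 at salm; the limit removes peaks by construction. The wild-type share with a partner, 78.6%, was 64.3% under a reciprocal overlap of 50% and under summits within 200 bp (arms 33.4 and 36.3%). It was 75.0% for scores of at least 100 (arms 52.8%). For scores of at least 50 after multiplication by 0.257, the ratio of filtered ChIP tags, it was 70.0% (arms 56.0%). Of the 4 members under 50 on that scale, 4 had a mutant partner (arms 37.7%). The wild-type run was scaled to its smaller library, the input, so this factor need not match the depth behind its scores. No peaks were called again at lower depth, so these shares do not show the effect of depth. The mutant share became 75.0% under the reciprocal rule (arms 50.4%) and 75.0% under the summit rule (arms 54.8%). Under the reciprocal rule wg peak 1 and hh peak 2 lost their partner, and under the summit rule wg peak 2 and hh peak 1 did.

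The best rank of a locus depended on the measure. For wg in wild type it was 376 by fold, 480 by score, 643 by tag number, 426 by tags per kb, 395 of 3891 over the whole list and 77 of 520 on its arm. For wg in the mutant it was 561 by fold, 454 by score, 622 by tag number and 233 by tags per kb. At hh in wild type it was 142 by fold, 321 by tags per kb and 145 over the whole list; in the mutant it was 147 by fold, 307 by score, 573 by tag number and 31 of 488 on its arm. At salm in wild type it was 1 by fold, 26 by score, 491 by tag number and 16 by tags per kb; in the mutant it was 190 by fold, 573 by tag number and 39 of 333 on its arm. Tag number is counted over the whole called peak and so takes in its length, but the cause of these shifts in rank was not tested. The median density ratio, 1.02, became 0.584 when scaled to the smaller library of each run (arms 0.659). That divisor lowered every ratio by the same factor. The median was 0.845 for called-peak tags over the length of the union (arms 0.841), without tags outside a called peak. Whether mutant density is the higher or the lower could not be told from these alternatives. Stretches as long as the windows were chosen after seeing the data. Whether weak mutant binding at wg peaks 3 and 5 and salm peak 3 went uncalled at 10060479 mutant ChIP tags was not tested.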
